A study of Mus musculus with 22 samples.

Results

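Acetylcholine is the transmitter by which neurons of the medial septum and diagonal band act on the hippocampus. The genes described here make, break down and sense it. Chat encodes choline acetyltransferase, the enzyme that makes it. Ache and Bche encode acetylcholinesterase and butyrylcholinesterase, which break it down. Chrm1, Chrm2, Chrm3 and Chrm4 encode muscarinic receptors, which act through G proteins, and Chrna4, Chrna7 and Chrnb2 encode subunits of nicotinic receptors, which are ion channels. They were taken as all non-control probes whose RefSeq transcript belongs to 1 of these 10 genes. This gave 12 probes (2 each for Ache and Chrm1) of 55681 non-control probes, and 10 genes of the 21154 that had a RefSeq probe.

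Hippocampi of the right hemisphere came from TgproNGF#3 and wild-type (WT) mice, 1 mouse per one-color Agilent array, with 4 mice of either genotype at the ages of 1 and 3 months and 3 of either at 12 months. All mice shared the C57Bl/6xDBA/2 background and were untreated, and were labelled male at 1 and 3 months and female at 12 months. TgproNGF#3 mice are 1 founder line carrying a transgene for furin-resistant proNGF followed by an IRES and EGFP. The transgene is driven by the Thy1.2 promoter, which is active in neurons. The arrays of an age share a slide that holds no other age, and age, slide and, at 12 months, sex cannot be told apart. At 12 months the TgproNGF#3 arrays lay in 1 row of the slide together with WT replicate 3, and the other WT arrays lay in the other row.

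Cholinergic fibres run widely through the hippocampus, but most of their cell bodies lie outside it. The transcripts of receptors and of the cholinesterases can therefore come from hippocampal cells themselves, while Chat is expressed by few cells there. In whole-hippocampus RNA, fewer cells of a type and less RNA per cell cannot be told apart. The level of a gene is given throughout as the log2 intensity of its probe minus the 75th percentile (log2) of the spots well above background on the same array, so that 0 is that percentile. Where a gene had 2 probes, the probe with the higher mean was its main probe. The levels of different probes cannot be set against each other, because probes differ in how they bind and label. Genotypes were compared within each age with limma, two-sided, and p-values were adjusted over all probes tested (Benjamini-Hochberg). The p-values measure the spread between these mice. The smallest p that an exact permutation test allows is 0.0286 with 4 mice against 4 and 0.1 with 3 against 3.

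Every probe of the 10 genes was well above background on all 22 arrays, with the exception of Chrm2, which reached this on 20. All 10 genes were tested at every age. Of the spots on an array, between 69.8% and 80.3% were well above background at 1 month, between 57.6% and 64.7% at 3 months and between 60.7% and 67.7% at 12 months. No spot was saturated, and the lowest correlation between any pair of arrays was 0.947. As a check of the tissue, the 5 measurable marker genes of pyramidal neurons and the 7 of interneurons were detected at every age. Among 8 markers of cholinergic neurons, 5 could be tested. Markers of the choroid plexus, a tissue next to the hippocampus, varied among mice, least so in WT mice at 3 months. The summed linear level of 7 such genes, in multiples of the 75th percentile, ran from 6.14 to 133 in TgproNGF#3 mice and from 72.6 to 111 in WT mice at that age. Their median log2 fold change was -0.49, -0.87 and -0.88 at 1, 3 and 12 months. At each age 0 of the 7 lay above 0 and 0 passed the adjusted test. Of the 5 cholinergic markers tested, none passed the adjusted test at any age, and their log2 fold changes lay between -0.36 and 0.58 at 1 month, between 0.15 and 0.87 at 3 months and between -0.30 and 0.17 at 12 months.

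Of the 10 genes, 1 passed the adjusted threshold of 0.05. This was Chrm1, which was lower in TgproNGF#3 mice at 3 months (1 of 10 lower, where 4.48% of all 15735 genes were called lower, and 0 of 10 higher, where 2.05% were). At both other ages 0 of 10 genes passed, as did 0% of all genes tested with limma. Without adjustment, limma p lay below 0.05 for 1 gene at 1 month (2.85% of all genes), for 4 at 3 months (24.9%) and for 2 at 12 months (8.09%). A log2 fold change beyond 1 in either direction with an unadjusted p below 0.05, the rule of the study's methods, was met by 0 of the 10 genes at each age. That rule was met by 0.174% of all genes upwards and 0.169% downwards at 1 month, by 0.775% and 3.36% at 3 months, and by 0.331% and 0.854% at 12 months.

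**Figure D1:**
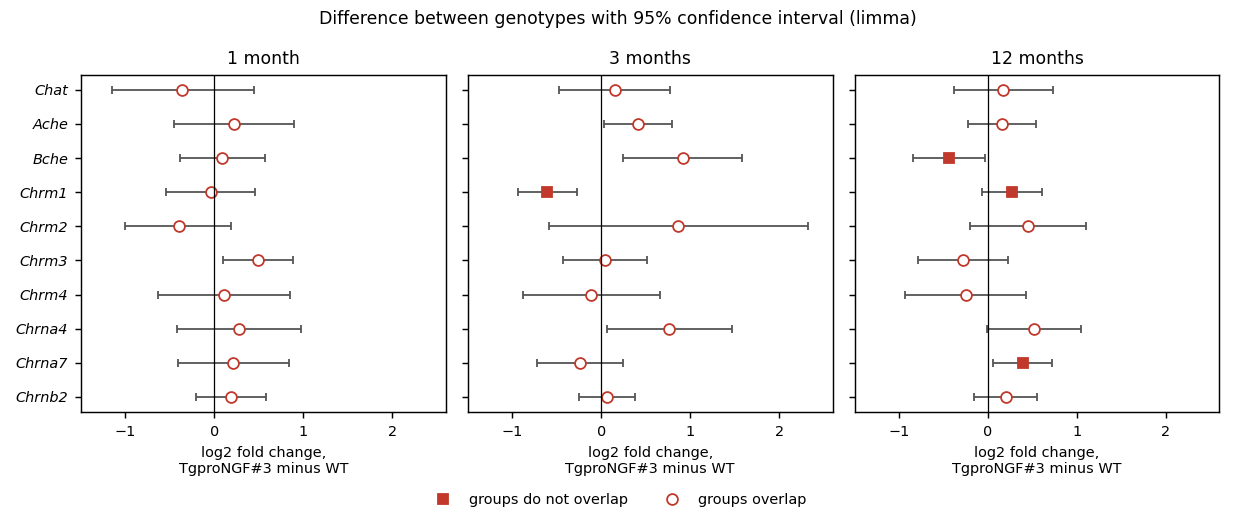
Log2 fold change of each gene (TgproNGF#3 minus WT, x axis) with its 95% confidence interval, in a panel for each age. Filled squares are genes whose TgproNGF#3 and WT mice do not overlap: none at 1 month, Chrm1 at 3 months, and Bche, Chrm1 and Chrna7 at 12 months; the Chrm1 square lies left of 0 at 3 months and right of it at 12 months.

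None of these counts is particular to the 10 genes, since shares of this order were called over all genes. The median log2 fold change of the 10 genes was 0.15 at 1 month, 0.11 at 3 months and 0.19 at 12 months, beside 0.07, -0.05 and 0.06 over all genes tested. The log2 fold change was above 0 for 7 of the 10 genes at each age, beside 67.2%, 43.8% and 59.9% of all genes. These medians and shares depend on how the arrays are scaled. Aligned to the 75th percentile over all spots, 51.4%, 58.2% and 55.6% of all genes lay above 0. The medians were then 0.08, 0.23 and 0.16 for the 10 genes and 0.01, 0.07 and 0.04 over all genes. The values of the genotypes did not overlap for 0 genes at 1 month (2.94% of all genes), for 1 at 3 months (19.3%) and for 3 at 12 months (15.9%).

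**Figure D2:**
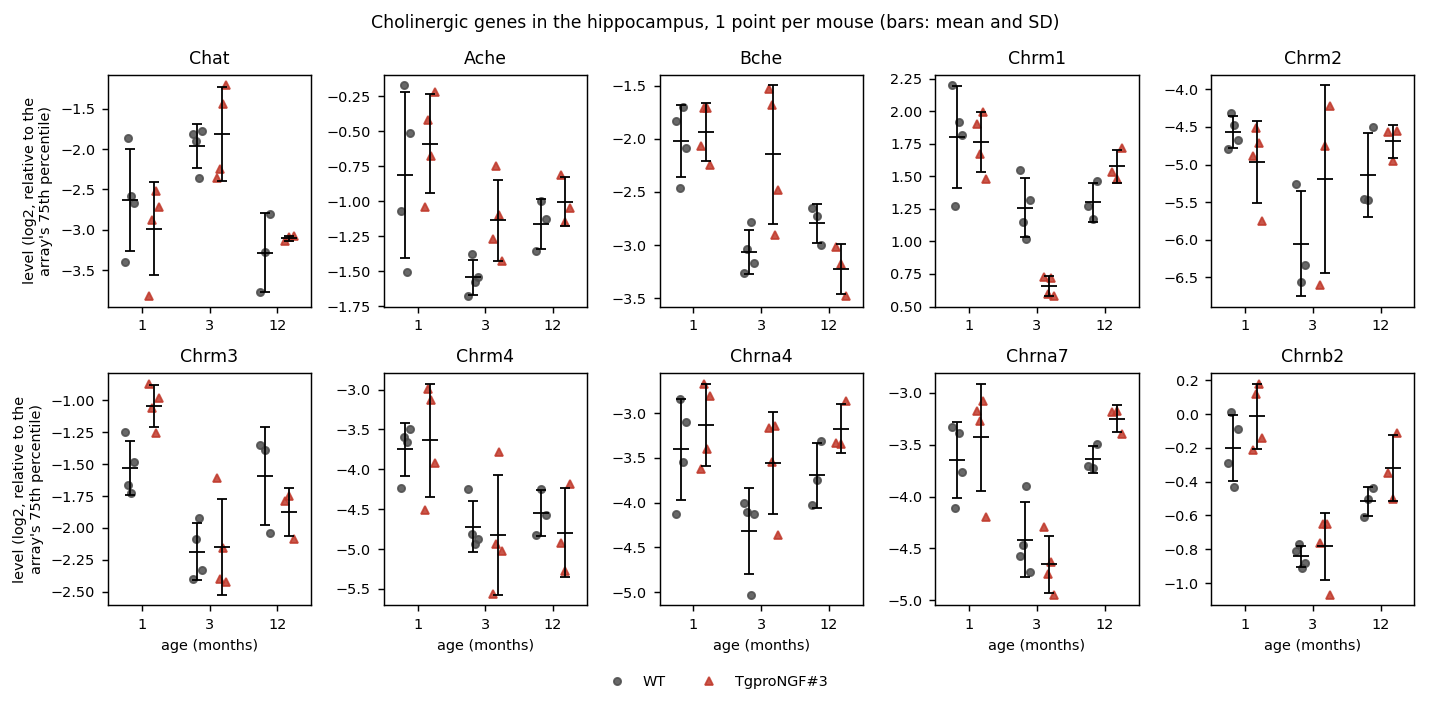
Level of each of the 10 genes in every mouse (y axis, log2 relative to the 75th percentile of the array) against age, WT as gray circles and TgproNGF#3 as red triangles, with group mean and SD as black bars. The y axes differ between panels; the genotypes stand apart most plainly for Chrm1 at 3 months, where TgproNGF#3 mice lie between 0.58 and 0.73 and WT mice between 1.02 and 1.55.

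Chat stood for synthesis. Its level at 1 month was -3.82, -2.88, -2.52 and -2.72 in TgproNGF#3 mice and -3.40, -1.87, -2.58 and -2.67 in WT mice. At 3 months it was -2.36, -2.25, -1.44 and -1.21 against -1.82, -1.90, -2.36 and -1.78, and at 12 months -3.14, -3.09 and -3.08 against -3.77, -3.27 and -2.80. At each age the TgproNGF#3 and WT values overlapped. The log2 fold change was -0.36 (95% confidence interval -1.15 to 0.44) at 1 month, 0.15 (-0.47 to 0.77) at 3 months and 0.17 (-0.38 to 0.73) at 12 months, so that differences of this size in either direction were within the error. At 1 month, leaving out TgproNGF#3 replicate 1 gave -0.08. Leaving out a WT mouse gave -0.10 for replicate 2 and -0.61 for replicate 1. The vesicular acetylcholine transporter Slc18a3, which loads acetylcholine into vesicles, gave 0.15, 0.38 and -0.22 (SE 0.212, 0.304 and 0.259), again with overlapping groups. The choline transporter Slc5a7, which supplies Chat with choline, was well above background on 20 of 22 arrays and gave 0.31 (SE 0.232), 0.87 (SE 0.421, adjusted p = 0.226) and 0.03 (SE 0.593), with 3 WT values at 3 months and 2 at 12 months.

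Breakdown was read from both cholinesterases. For each, the 150 bases before the transcript start that the RefSeq promoter table uses are shown, because these are the enzymes whose levels are described in most detail here. By the RefSeq gene table both genes begin a little further upstream, so that the last 7 bases of the Ache window and the last 21 of the Bche window lie inside the gene. The sequences and coordinates are those of RefSeq (GRCm38.p6), written 5′ to 3′ on the strand of the gene, with the GC box GGGCGG on either strand in capitals.

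Ache (chr5:137288104-137288253, plus strand): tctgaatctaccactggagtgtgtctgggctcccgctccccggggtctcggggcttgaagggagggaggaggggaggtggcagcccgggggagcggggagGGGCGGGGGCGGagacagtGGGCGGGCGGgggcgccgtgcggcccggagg
Bche (chr3:73708416-73708565, minus strand): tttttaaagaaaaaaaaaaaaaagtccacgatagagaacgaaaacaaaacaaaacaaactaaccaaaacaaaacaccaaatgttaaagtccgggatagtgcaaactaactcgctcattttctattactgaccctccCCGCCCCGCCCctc

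The window of Ache has a GC content of 76% and holds 4 GC boxes, some of them overlapping. That of Bche has a GC content of 38%, with runs of A, and holds 2 overlapping GC boxes, both on the opposite strand and both within the bases that lie inside the gene by the gene table. Over the windows of all 32851 promoters in the table the median GC content was 54%, and 28.6% held a GC box. The Ache window thus lies above the upper quartile of 64% and the Bche window below the lower quartile of 46%. Neither window held a CCAAT box (CCAAT on either strand), which 24.5% of all promoters held. Of the 10 genes, 9 were in the table, and a GC box was found for Ache, Bche, Chrm2, Chrm4, Chrna4 and Chrna7.

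Ache had a level at 3 months of -1.27, -0.75, -1.10 and -1.43 in TgproNGF#3 mice and of -1.68, -1.38, -1.58 and -1.54 in WT mice by its main probe. The lowest TgproNGF#3 mouse lay just inside the WT range and the other TgproNGF#3 mice lay above it. TgproNGF#3 minus WT, this was a log2 fold change of 0.41 (SE 0.17, 95% confidence interval 0.03 to 0.79, adjusted p = 0.159, exact permutation p = 0.0571). The other Ache probe read -1.72, -1.13, -1.29 and -1.74 against -1.89, -1.81, -2.34 and -1.93. By that probe all TgproNGF#3 mice lay above all WT mice, with a log2 fold change of 0.52 (SE 0.191, adjusted p = 0.117, exact permutation p = 0.0286). Both probes thus had unadjusted p-values below 0.05 (0.0384 and 0.022) and neither passed after adjustment.

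At 1 month the main probe read -1.04, -0.42, -0.68 and -0.22 in TgproNGF#3 mice and -1.07, -0.17, -1.51 and -0.51 in WT mice, and at 12 months -0.81, -1.15 and -1.05 against -1.36, -1.0 and -1.13. The genotypes overlapped at both ages. The log2 fold changes were 0.22 (SE 0.302) and 0.16 (SE 0.162), and 0.37 (SE 0.248) and 0.18 (SE 0.191) by the other probe. All 6 estimates of Ache, over the probes and ages, lay above 0. The levels by the 2 probes correlated over the 22 arrays with r = 0.88. No difference between ages in the fold change of Ache passed. For 12 months minus 3 months it was -0.25 (SE 0.354, adjusted p = 0.766) by the main probe and -0.34 (SE 0.327, adjusted p = 0.624) by the other.

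Prima1, the protein that anchors acetylcholinesterase in the membrane of brain cells, belonged to a wider list of 43 cholinergic genes and was the gene of that list with the smallest p at 3 months. Its level was -2.65, -2.54, -2.80 and -2.45 in TgproNGF#3 mice and -3.51, -3.83, -3.40 and -3.56 in WT mice. All TgproNGF#3 mice lay above all WT mice, with a gap between the groups wider than the range of either. Prima1 rose by a log2 fold change of 0.96 (SE 0.147, 1.95-fold, adjusted limma p = 0.00615, exact permutation p = 0.0286). At 1 month it was -1.64, -1.64, -1.09 and -2.22 against -2.41, -2.20, -1.95 and -2.18, and the lowest TgproNGF#3 mouse overlapped the WT mice (log2 fold change 0.53, SE 0.238, adjusted p = 1). At 12 months the log2 fold change was 0.09 (SE 0.144, adjusted p = 0.817). The call at 3 months held without any single mouse (adjusted p 0.0082 to 0.0296). The summed level of 5 oligodendrocyte markers was also apart at 3 months, at 65 to 75.1 in TgproNGF#3 mice and 46.6 to 60.2 in WT mice, with 0 of the 5 past the adjusted test, and the part of these cells in the Prima1 values was not tested.

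Bche had a level at 3 months of -1.53, -1.68, -2.90 and -2.48 in TgproNGF#3 mice and of -3.26, -3.04, -2.78 and -3.17 in WT mice. TgproNGF#3 replicates 1 and 2 were far above the WT mice, replicate 4 was above them by a smaller margin, and replicate 3 lay among them. The SD was 0.652 in TgproNGF#3 mice and 0.211 in WT mice. The log2 fold change of 0.92 (SE 0.295, 95% confidence interval 0.25 to 1.58) was 1.89-fold and had an adjusted p of 0.0853 and an exact permutation p of 0.0571. It passed the adjusted threshold without TgproNGF#3 replicate 3 (log2 fold change 1.17, adjusted p = 0.0234) and with 3 of 11 other processing choices.

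At 12 months Bche lay on the other side. Its level was -3.02, -3.18 and -3.48 in TgproNGF#3 mice and -2.65, -2.73 and -3.00 in WT mice, and every TgproNGF#3 mouse was below every WT mouse, by a gap of little width. The log2 fold change was -0.44 (SE 0.174, 95% confidence interval -0.84 to -0.03, adjusted p = 0.549, exact permutation p = 0.1). At 1 month the levels of -2.07, -1.71, -1.71 and -2.25 against -1.83, -2.46, -1.70 and -2.09 overlapped throughout (log2 fold change 0.09, SE 0.218).

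The difference between the fold changes of Bche at 12 and at 3 months was tested in 1 fit of all 22 arrays and was -1.35 (SE 0.375, adjusted p = 0.0413). It was the 1 difference between ages that passed among the 10 genes, where 3.83% of 15376 genes passed for 12 months minus 3 months and 2.11% for 3 months minus 1 month. Its size stayed between -1.60 and -1.15 with any mouse left out, but the adjusted p then ran from 0.00567 to 0.107. It was 0.107 without TgproNGF#3 12-month replicate 3, 0.105 and 0.0951 without WT 12-month replicates 1 and 2, 0.0754 without TgproNGF#3 12-month replicate 2, 0.0792 and 0.0703 without TgproNGF#3 3-month replicates 1 and 2, and 0.0788, 0.0585 and 0.0792 without WT 3-month replicates 1, 2 and 4. It was also just above the threshold without TgproNGF#3 1-month replicate 1 (0.051) and WT 1-month replicate 4 (0.0516). The call was also lost with quantile normalization (adjusted p = 0.147), with the median in place of the percentile (0.132), with the replicate number as a block (0.0792) and with normexp (0.0518). With the array row as a block the difference was -1.15, but WT replicate 3 alone then stands for WT at 12 months. Markers of the leptomeninges, the membranes around the brain, had median log2 fold changes of -0.34 at 1 month (1 of 6 above 0), 0.59 at 3 months (6 of 6 above 0) and -0.96 at 12 months (1 of 6 above 0), and 0 of the 6 passed the adjusted test at any age. Their median and the fold change of Bche had the same sign at 3 and 12 months and opposite signs at 1 month. The summed linear level of these 6 genes, in multiples of the 75th percentile, was 8.33, 7.74, 8.26 and 4.86 in TgproNGF#3 mice at 3 months. In WT mice of that age it was 5.5, 6.87, 4.03 and 4.68. At 12 months the sums ran from 5.91 to 10.2 and from 6.41 to 9.49. Dcn weighs most in these sums, with a log2 fold change of 0.18 at 3 months and 0.13 at 12 months. At 12 months it was the 1 of the 6 above 0, and the others ran from -1.55 for Aldh1a2 to -0.25 for Lum. The part of these cells in the Bche values was not tested.

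**Figure D3:**
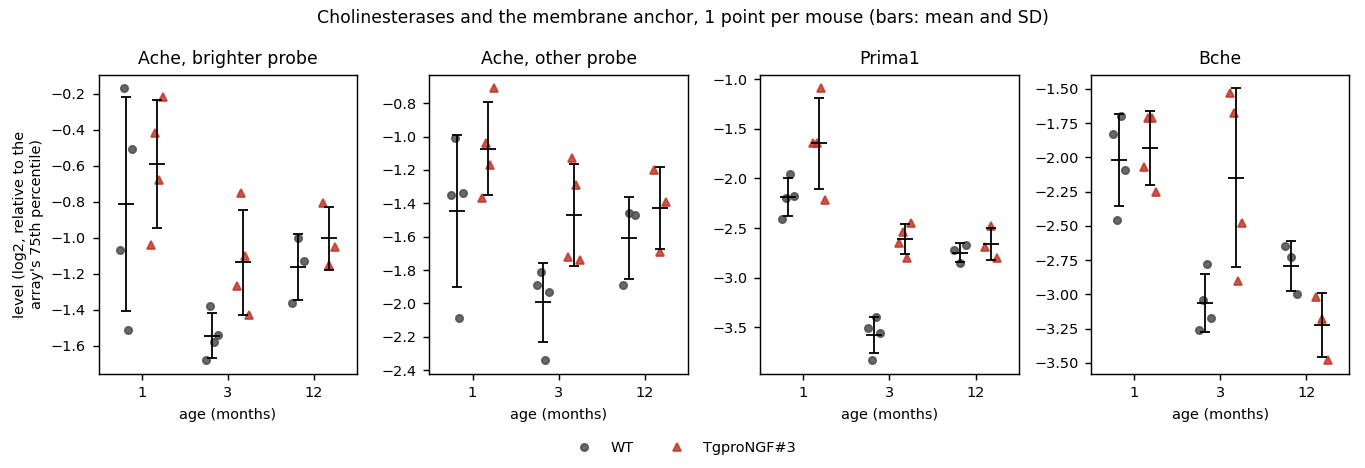
Level of Ache by its 2 probes, of Prima1 and of Bche in every mouse (y axis, log2 relative to the 75th percentile of the array) against age, WT as gray circles and TgproNGF#3 as red triangles, with mean and SD as black bars. Prima1 shows 2 separate clouds at 3 months, from -2.80 to -2.45 and from -3.83 to -3.40, and Bche shows TgproNGF#3 mice above most WT mice at 3 months and below all of them at 12 months.

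The muscarinic receptors divide into M1 and M3, which act through Gq and phospholipase C, and M2 and M4, which act through Gi. Chrm1, the main muscarinic receptor of pyramidal neurons, was 0.73, 0.60, 0.72 and 0.58 at 3 months in TgproNGF#3 mice and 1.55, 1.15, 1.02 and 1.32 in WT mice. All TgproNGF#3 mice lay below all WT mice, and the TgproNGF#3 values were close together (SD 0.0789 against 0.228). Chrm1 fell by 0.61 on the log2 scale (SE 0.148, 95% confidence interval -0.94 to -0.27, 0.657 of the WT level, adjusted limma p = 0.0373, exact permutation p = 0.0286). A second probe, for another RefSeq transcript of the gene, read -4.67, -4.46, -4.87 and -5.21 against -4.06, -4.14, -4.33 and -3.90. It too placed all TgproNGF#3 mice below all WT mice, with a log2 fold change of -0.69 (SE 0.184, adjusted p = 0.0493). Both calls were near the threshold. Without 1 mouse the log2 fold change by the main probe stayed between -0.69 and -0.51 and the adjusted p ran from 0.0421 to 0.125, above the threshold without TgproNGF#3 replicate 1 (0.0632), 2 (0.0821) or 4 (0.0536) and without WT replicate 1 (0.1), 2 (0.0623) or 4 (0.125). The call was also lost with dim spots kept (adjusted p = 0.133), with the percentile over all spots (0.0682), with the median in its place (0.0851), with normexp background correction (0.0534) and with the array row (0.0592) or the replicate number (0.116) as a block.

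At the other ages Chrm1 was not lower by its main probe. At 1 month its level was 1.90, 1.67, 1.99 and 1.48 in TgproNGF#3 mice and 2.20, 1.27, 1.92 and 1.82 in WT mice, with overlap (log2 fold change -0.04, SE 0.223). At 12 months it was 1.53, 1.48 and 1.72 against 1.27, 1.17 and 1.46, and all TgproNGF#3 mice lay above all WT mice by a narrow gap (log2 fold change 0.27, SE 0.146, adjusted p = 0.576, exact permutation p = 0.1). The second probe read -0.36 (SE 0.19) at 1 month and -0.01 (SE 0.157) at 12 months as log2 fold changes, so that the probes differed in where they placed these ages. At 1 month the replicate numbers were taken to pair the mice. Within these pairs the second probe differed by -0.65, -0.42, -0.22 and -0.16, all below 0, and the main probe by -0.30, 0.40, 0.07 and -0.34. The levels by the 2 probes correlated with r = 0.67 over the 22 arrays. The difference between the fold changes at 12 and at 3 months was 0.88 (SE 0.262, adjusted p = 0.0597) by the main probe and 0.69 (SE 0.261, adjusted p = 0.148) by the second.

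Markers of pyramidal neurons are given beside Chrm1. Of 6 such markers, 5 were measurable at 3 months, and their summed linear level was 30.7, 24.4, 26.7 and 21.3 in TgproNGF#3 mice and 35.9, 31.8, 34.8 and 33.2 in WT mice. The sums did not overlap. At 3 months 1 of the 5 fell (Fibcd1, a gene of CA1 pyramidal neurons, by 0.93 on the log2 scale, SE 0.159, adjusted p = 0.00942) and the other 4 did not pass, with log2 fold changes of -0.64 for Cpne7, which weighs most in the sum, -0.29 for Bok, -0.13 for Neurod6 and 0.14 for Wfs1. Over the 5 the median log2 fold change was -0.29 and 1 of the 5 was above 0. At 12 months the sums lay between 36.1 and 48 in TgproNGF#3 mice and between 24.8 and 41.2 in WT mice. The part of these neurons in the Chrm1 values was not tested.

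**Figure D4:**
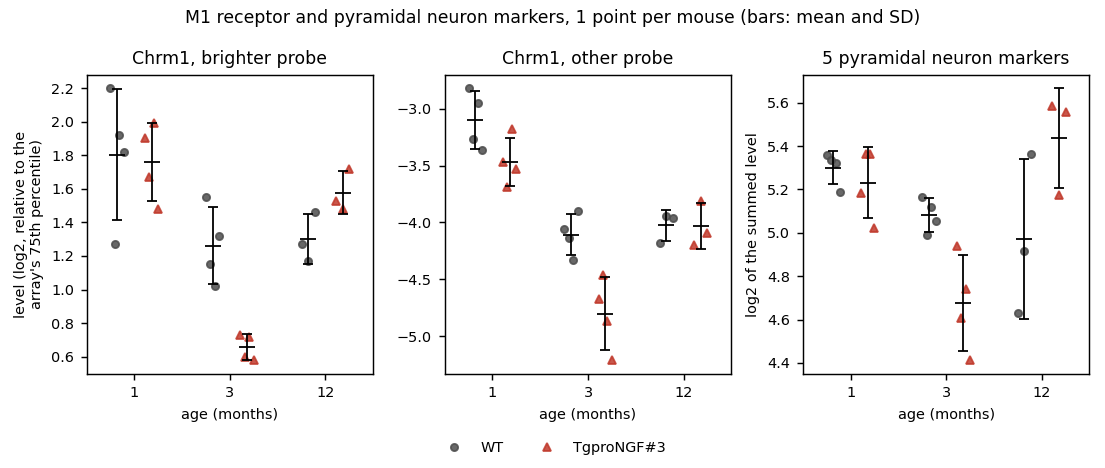
Level of Chrm1 by its 2 probes (y axis, log2 relative to the 75th percentile of the array) and log2 of the summed level of 5 pyramidal neuron markers in every mouse against age, WT as gray circles and TgproNGF#3 as red triangles, with mean and SD as black bars. At 3 months the TgproNGF#3 mice lie below the WT mice in all 3 panels, and at 12 months the group means of the main probe and of the markers are in the opposite order.

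Chrm3 stood out at 1 month. Its level was -0.87, -1.06, -1.26 and -0.98 in TgproNGF#3 mice and -1.25, -1.66, -1.73 and -1.48 in WT mice. All but 1 TgproNGF#3 mouse lay above all WT mice, and that mouse lay just below the highest WT mouse. The log2 fold change of 0.49 (SE 0.176, 95% confidence interval 0.10 to 0.88) had an unadjusted limma p of 0.0191 and an adjusted p of 1, with an exact permutation p of 0.0571. At this age the differences within the pairs were 0.39, 0.61, 0.47 and 0.50, all above 0. With the pairs as a block the unadjusted limma p was 0.0197 and the adjusted p 0.765, and 0.125 is the smallest two-sided p of an exact test over 4 pairs. At 3 months the levels of -1.61, -2.40, -2.16 and -2.42 against -2.40, -2.09, -1.92 and -2.33 overlapped (log2 fold change 0.04, SE 0.208). At 12 months they were -1.79, -1.75 and -2.09 against -1.35, -1.39 and -2.04 (log2 fold change -0.28, SE 0.218). The fold change was thus lower at 12 months than at 1 month by 0.77 on the log2 scale (difference -0.77, SE 0.294), which did not pass after adjustment in limma (adjusted p = 0.675).

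Of the Gi-coupled receptors, Chrm2 had the widest error among the 10 genes at 3 months. Chrm2, also known as an autoreceptor on cholinergic endings, was not well above background on 1 array of each genotype at 3 months, and those arrays were left out of its fit. Its level there was -6.60, -4.76 and -4.22 in TgproNGF#3 mice and -5.26, -6.56 and -6.34 in WT mice, a log2 fold change of 0.86 with a 95% confidence interval from -0.59 to 2.32. The value was 1.57 without TgproNGF#3 replicate 1 (adjusted p = 0.0947) and 0.37 without TgproNGF#3 replicate 3, 0.40 with normexp and 0.23 with the replicate number as a block. At 1 month the levels were -4.89, -4.51, -4.71 and -5.75 against -4.79, -4.31, -4.48 and -4.68 (log2 fold change -0.40, SE 0.266), and at 12 months -4.57, -4.95 and -4.56 against -5.46, -5.47 and -4.50 (0.45, SE 0.28). These values were -0.14 at 1 month without TgproNGF#3 replicate 4 and, at 12 months, 0.77 without WT replicate 3, 0.29 without WT replicate 1 or 2, 0.74 with quantile normalization and 0.11 with normexp. With the array row as a block, which leaves WT replicate 3 alone on the WT side at 12 months, the value was -0.19. Within the pairs of 1 month Chrm2 differed by -0.10, -0.21, -0.23 and -1.08, all below 0, with an adjusted limma p of 0.931 with the pairs as a block. The groups overlapped at each age, and no difference in Chrm2 passed the adjusted test.

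Chrm4, the other Gi-coupled receptor, spread widely among mice of the same genotype. Its level at 3 months was -5.56, -4.94, -3.78 and -5.02 in TgproNGF#3 mice and -4.25, -4.81, -4.94 and -4.87 in WT mice. At 1 month the TgproNGF#3 mice ran from -4.51 to -2.99 and the WT mice from -4.24 to -3.50, and at 12 months the ranges were -5.28 to -4.18 and -4.82 to -4.25. The groups overlapped at every age, and the log2 fold changes of 0.11, -0.11 and -0.25 were smaller than their SE (0.334, 0.343 and 0.291). Markers of the striatum, a neighbouring source of Chrm4, had median log2 fold changes of -0.05, -0.00 and -0.08.

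Among the nicotinic subunits, Chrna4 and Chrnb2 form the main high-affinity receptor of the brain and Chrna7 forms channels of its own. Chrna4 had a level at 3 months of -3.17, -3.55, -3.15 and -4.36 in TgproNGF#3 mice and of -4.00, -4.11, -5.03 and -4.13 in WT mice. TgproNGF#3 replicates 1 to 3 were above all WT mice, replicate 4 was within their range, and WT replicate 3 was far below the rest. The difference in Chrna4 was 0.76 on the log2 scale (SE 0.315, 95% confidence interval 0.06 to 1.47, adjusted p = 0.156, exact permutation p = 0.114). It was 1.03 without TgproNGF#3 replicate 4 (adjusted p = 0.0429) and 0.53 at the least when another mouse was left out. Over 11 other processing choices it lay between 0.42 and 0.90.

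At 1 month Chrna4 read -3.63, -2.68, -3.40 and -2.81 against -4.13, -2.84, -3.55 and -3.10, and at 12 months -3.33, -3.34 and -2.86 against -4.03, -3.75 and -3.31. The genotypes overlapped, at 12 months through 1 WT mouse only. This gave log2 fold changes of 0.28 (SE 0.313) and 0.52 (SE 0.226, adjusted p = 0.549). With 1 mouse left out these ran from 0.04 to 0.46 at 1 month and from 0.35 to 0.71 at 12 months. Within the pairs of 1 month Chrna4 differed by 0.50, 0.16, 0.15 and 0.29, all above 0, and with the pairs as a block the adjusted limma p was 0.953. Its partner Chrnb2 showed smaller differences, 0.19 (SE 0.176), 0.06 (SE 0.14) and 0.20 (SE 0.151) at 1, 3 and 12 months, with overlap at each age. At 3 months the levels of Chrnb2 were -0.76, -0.65, -0.65 and -1.07 in TgproNGF#3 mice and -0.81, -0.77, -0.91 and -0.88 in WT mice. The 95% confidence interval at that age, from -0.25 to 0.38, left room for a small change of either sign.

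Chrna7 was measured by 10 spots of the same probe on every array, of which 8 to 10 were used. The SD between spots of an array was at most 0.16, against SDs between mice of 0.126 to 0.517. At 12 months its level was -3.18, -3.17 and -3.40 in TgproNGF#3 mice and -3.71, -3.72 and -3.49 in WT mice. All TgproNGF#3 mice lay above all WT mice, and replicate 3 of each genotype came closest to the other. Chrna7 differed by 0.39 on the log2 scale (SE 0.143, 95% confidence interval 0.06 to 0.72), with an unadjusted limma p of 0.0273, an adjusted p of 0.549 and an exact permutation p of 0.1. Over 11 other processing choices it lay between 0.15 and 0.61. The 7 interneuron markers had a median log2 fold change of 0.51 at this age (7 of 7 above 0, 0 past the adjusted test), with sums of 37.2 to 48.9 in TgproNGF#3 mice and 25.2 to 40.9 in WT mice, and the part of these neurons in the Chrna7 values was not tested. With the row of the slide as a block at 12 months, the WT side rests on replicate 3 alone, the only WT array in the row of the TgproNGF#3 arrays. The log2 fold change was then 0.24 for Chrna7, -0.23 for Bche, 0.11 for Chrm1 and 0.13 for Chrna4, each closer to 0 than without the block. Such a comparison cannot tell an effect of the row from the values of that WT mouse.

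At 3 months the levels of Chrna7 were -4.29, -4.75, -4.63 and -4.95 in TgproNGF#3 mice and -4.57, -4.47, -3.90 and -4.73 in WT mice, and at 1 month -3.17, -3.27, -3.08 and -4.20 against -3.33, -4.11, -3.39 and -3.76. The genotypes overlapped at both ages, with log2 fold changes of -0.24 (SE 0.213) and 0.21 (SE 0.281). With 1 mouse left out these ran from -0.36 to -0.07 at 3 months and from 0.06 to 0.47 at 1 month. No difference between ages in its fold change passed (12 months minus 3 months 0.63, SE 0.354, adjusted p = 0.361).

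Across the ages, each on its own slide, the levels are a description without a test. The median level over all mice of an age was lower at 3 months than at 1 and at 12 months for 8 of the 10 genes: Ache (-0.59, -1.40 and -1.09 at 1, 3 and 12 months), Chrm1 (1.86, 0.88 and 1.47), Chrm2 (-4.69, -5.80 and -4.76), Chrm3 (-1.26, -2.25 and -1.77), Chrm4 (-3.63, -4.90 and -4.69), Chrna4 (-3.25, -4.06 and -3.34), Chrna7 (-3.36, -4.60 and -3.45) and Chrnb2 (-0.11, -0.79 and -0.47). Over all 15376 genes compared, 58.7% had their lowest median at 3 months, where the lowest share of spots well above background, 57.6%, was also found. Chat had its highest median there (-2.70, -1.86 and -3.12), as 4.01% of all genes did, and Bche had its highest at 1 month (-1.95, -2.84 and -3.01). The ranges of 3 and 12 months did not meet for 3 of the 10 genes (6.69% of all genes). These were Chrna7 (-4.95 to -3.90 and -3.72 to -3.17), Chrnb2 (-1.07 to -0.65 and -0.61 to -0.11) and Chat (-2.36 to -1.21 and -3.77 to -2.80), while those of Ache and of the muscarinic genes overlapped between these ages.

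The levels of the 10 genes were also compared with each other over the 22 arrays, after the mean of each age had been subtracted and without Chrm2, which lacked values. These correlations are over arrays that share scaling, genotype and dissection, and they carry no test. The highest were those of Chrna4 with Chrnb2 (r = 0.67), of Ache with Chrna4 (0.66) and of Ache with Chrnb2 (0.65). The lowest were those of Chat with Chrm3 (-0.67) and of Ache with Chrm1 (-0.62). The median over the 36 pairs was 0.03, beside 0.21 over all pairs of 14508 genes. Bche went with Prima1 (0.61) and with Lypd6b (0.73) and hardly with Ache (0.09), whose own correlation with Prima1 was 0.19.

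**Figure D5:**
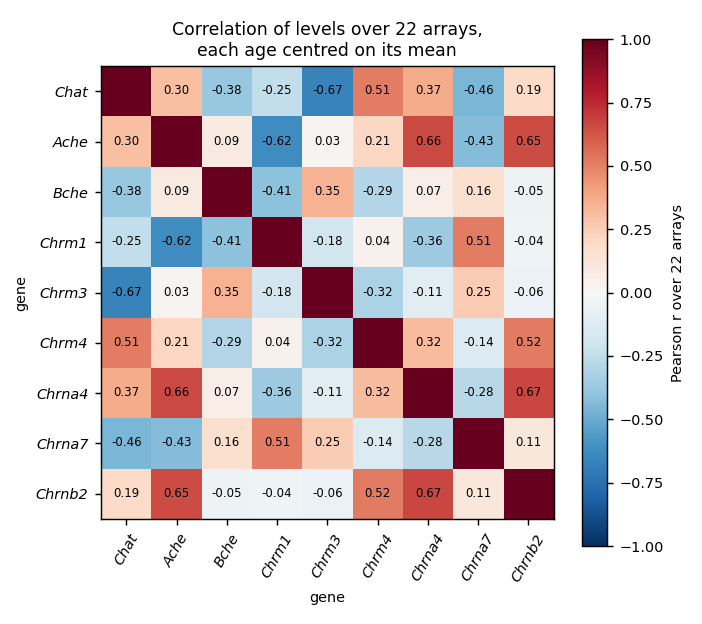
Pearson correlation of the levels of 9 genes over 22 arrays, with each age centred on its mean; both axes list the genes and the color scale runs from -1 to 1. Ache, Chrna4 and Chrnb2 form a block of values from 0.65 to 0.67, while Ache with Chrm1 (-0.62) and Chat with Chrm3 (-0.67) lie at the other end.

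Each of the 9 genes was set against the other 14507 genes in the same way, and those among the 3 with the highest r are named. The level of Ache was most like those of Ppp2r1a (0.97), Pik3r2 (0.95) and Irf2bp1 (0.94), and that of Chrm1 most like those of Mfhas1 (0.94) and Nol4l (0.93). Chrnb2 went with Ywhab (0.93), Tmem201 (0.91) and Ncs1 (0.90), Chrna7 with Lrp12 (0.89), E2f3 (0.89) and Tulp4 (0.87), and Chrna4 with Sft2d2 (0.87), Wdr6 (0.84) and Kcna2 (0.83). Bche went with Serpind1 (0.87), Nkpd1 (0.85) and Kcnj4 (0.82), Chrm3 with Arid4b (0.83), Mpeg1 (0.83) and Ccdc121 (0.81), and Chrm4 with Cpb2 (0.81), Rxfp3 (0.81) and Akap7 (0.80). Chat was the gene with the steepest drop after its first match, Usp8 (0.85), to Six3 (0.72) and Atp6v1c2 (0.67). Of all pairs of genes, 1.36% had an r above 0.8.

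The wider list held 43 genes for choline supply, anchoring of acetylcholinesterase, other receptor subunits, chaperones and Ly6 proteins that bind nicotinic receptors, and the G proteins and channels on which muscarinic receptors act. All 43 had a probe, 32 were well above background on every array and 37 could be tested at 1 age or more. At 3 months 2 of 34 rose, Prima1 and Lypd6b, and 0 fell (2.05% and 4.48% of all genes). At 1 month 0 of 37 passed and at 12 months 0 of 34. Without adjustment, limma p lay below 0.05 for 1, 10 and 4 genes at 1, 3 and 12 months (2.85%, 24.9% and 8.09% of all genes). The median log2 fold change of the list was 0.11, 0.01 and 0.16.

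Lypd6b, a Ly6 protein related to modulators of nicotinic receptors, was -1.34, -1.44, -1.77 and -1.57 in TgproNGF#3 mice at 3 months and -2.15, -2.01, -2.0 and -2.12 in WT mice. The groups stood apart, and the WT mice were close together. Lypd6b rose by a log2 fold change of 0.54 (SE 0.138, 1.46-fold, adjusted limma p = 0.0427, exact permutation p = 0.0286), and without 1 mouse the adjusted p ran from 0.0259 to 0.139. It was 0.083 and 0.0964 without TgproNGF#3 replicates 1 and 2, and 0.114, 0.0773, 0.0804 and 0.139 without WT replicates 1 to 4. It lost its call with dim spots kept (0.0501), the median (0.0802), quantile normalization (0.0683), normexp (0.0569) and the array row (0.061) or replicate number (0.144) as a block. At 1 and 12 months its log2 fold change was 0.00 (SE 0.211) and -0.14 (SE 0.176).

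Other genes of the list with large differences did not pass. Pcyt1a, an enzyme that turns phosphocholine toward phosphatidylcholine, had a log2 fold change of -0.85 at 3 months (SE 0.325, adjusted p = 0.132), with levels of -0.79, -0.71, -0.61 and -2.05 in TgproNGF#3 mice and of 0.30, -0.47, -0.41 and -0.20 in WT mice, and with TgproNGF#3 replicate 4 far below the rest. At 12 months the M-current channel gene Kcnq5, the phospholipase gene Plcb1 and the regulator of G protein signaling Rgs4 had log2 fold changes of 0.64 (SE 0.236), 0.64 (SE 0.224) and 0.71 (SE 0.325), with adjusted p-values of 0.549, 0.549 and 0.551. The groups did not overlap for Kcnq5 and Plcb1. At 1 month the muscle-type subunit Chrna1 gave 0.31 (SE 0.199, adjusted p = 1).

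Several receptor genes of the list gave little signal in the hippocampus. Chrnb3 was well above background on 0 of 22 arrays, Chrm5 and Chrnd on 1, Chrna3 and Chrne on 2, Chrna9 on 3, Chrng on 9, Chrnb1 on 11 and Chrna10 on 12. Of these, Chrng, Chrnb1 and Chrna10 could be compared at 1 month only (log2 fold changes 0.23, -0.07 and -0.08, adjusted p = 1 for each) and the others at no age.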

How the data were processed

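Hippocampal RNA of 22 mice was labelled with Cy3 and hybridized to Agilent 8x60K mouse arrays. The authors deposited, for every spot, the processed intensity from Feature Extraction 10.7.3.1 (background subtracted, spatial trends removed, no scaling between arrays), and a table of log2 values aligned to a common 75th percentile by the authors. That table holds 28929 probes and 9 of the 10 genes (not Chrm2), and differs from the values used here by 1 constant per array. Here, spots of controls, dim spots (not flagged as well above background) and outlier spots were dropped, the log2 intensity was scaled to the array's 75th percentile, and spots of a probe were averaged. Probes measured on 2 or more arrays of each genotype (40536, 33593 and 34064 at 1, 3 and 12 months) were fitted with limma 3.58.1 in R 4.3.3. The number of arrays limits the precision.

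The members and lists were chosen with earlier results of these data known. Genes named beside the 10 members are those of the wider list with an adjusted p below 0.05 or among its 3 largest log2 fold changes at an age, and the 3 genes most correlated with each member; Slc18a3 was added after its values were seen, as were the single pyramidal markers and the dim receptor genes. At 1 month same-numbered mice deviated together (r = 0.511, 0.272, 0.191 and 0.208), and the numbers were taken to pair them. For replicate 4 the same number did not give the best match. The array row does not set these pairs, because replicates 1 and 2 of both genotypes share a row, as do replicates 3 and 4. At 3 months (-0.356 to -0.0234) and 12 months (-0.316 to 0.0503) the numbers were not taken as pairs. The results of some genes are not reported here. The procedure was tested on simulated data.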

Additional observations from a re-analysis of the deposited data

Results flagged for a closer look

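Chrna4 in WT replicate 3 at 3 months had a level of -5.03, with the next WT mouse at -4.13. Chrna7 in TgproNGF#3 replicate 4 at 1 month had a level of -4.20, with the next TgproNGF#3 mouse at -3.27. Both lie further from their group than Dixon's test allows at its 95% level. Of 38 groups of 4 mice tested, 2 were marked, and chance marks about 1 in 20. The fold change of Bche differed between ages, by -1.35 (log2) for 12 months minus 3 months, in the fit of all 22 arrays.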

How the results depend on the processing

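The count of genes past the adjusted threshold at 3 months was 1. It was 0 with dim spots kept, with the median in place of the 75th percentile, with normexp and with the array row as a block, and 2 with the authors' log2 values and with all 22 arrays in 1 fit. With 1 mouse left out it ran from 0 to 2. With the replicate number as a block it was 0 (Chrm1 adjusted p = 0.116, Prima1 0.0533, Lypd6b 0.144), but at 3 months the numbers do not pair the mice. At 1 month, where they were taken to pair the mice, the block changed no call of the 10 genes. The count past the fold rule at 3 months, 0, was 1 with dim spots kept and with the percentile over all spots, and 0 to 2 with 1 mouse left out. The count of differences between ages, 1, was 0 with the median, quantile normalization, normexp and the replicate block, 2 with the authors' values, and 0 to 2 with 1 mouse left out. The Bche difference of -1.35 was -1.24 with the median (adjusted p = 0.132), -1.19 with quantile normalization (0.147), -1.18 with normexp (0.0518) and -1.35 with the replicate block (0.0792). It was -1.15 with the array row, where WT replicate 3 alone stands for WT at 12 months, and -1.60 to -1.15 with 1 mouse left out.

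Chrm1 at 3 months stayed between -0.65 and -0.47 over 11 choices. Its adjusted p was 0.133 with dim spots kept, 0.0682 with the percentile over all spots, 0.0851 with the median, 0.0534 with normexp and 0.0592 with the array row. Bche at 3 months passed with the percentile over all spots (1.05), the authors' values (1.00) and all arrays in 1 fit (0.92). Prima1 passed with 10 of 11 choices. Lypd6b kept its sign with all 11 and lost its call with dim spots kept, the median, quantile normalization, normexp and both blocks.

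The following changed sign. Chrm1 at 1 month was 0.01 with the median. Chrm4 at 3 months was 0.03 with dim spots kept, 0.02 with the percentile over all spots and 0.04 with quantile normalization, and 0.01 at 12 months with the last. With the array row at 12 months, where WT replicate 3 alone stands for WT, Chat was -0.31, Chrm2 -0.19 and Chrm3 0.17. With 1 mouse left out the ranges were, at 1 month, Ache -0.01 to 0.44, Bche -0.06 to 0.20, Chrm1 -0.22 to 0.09 and Chrm4 -0.11 to 0.40. At 3 months they were Chat -0.05 to 0.33, Chrm3 -0.14 to 0.13 and Chrm4 -0.46 to 0.14, and at 12 months Chat -0.07 to 0.42. Apart from those with the array row, which set the TgproNGF#3 mice against that WT mouse, the cause of these shifts was not tested.

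Scaling moved the median of all genes at 12 months from 0.06 to 0.21 with the median in place of the percentile, and that of the 10 genes from 0.19 to 0.33, with 76.7% of all genes above 0. Signal over background limits Chrm2 most.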
